A study of Homo sapiens with 6 samples.

Results

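Transcripts of 31 genes of cholesterol synthesis, transport and control were followed in SW480 cells, an established line from a human colorectal adenocarcinoma. The genes were taken by symbol, from the formation of acetoacetyl-CoA to cholesterol and then to the sterol sensors, carriers, efflux pumps and nuclear receptors. Of the 31, 28 had a named row of their own among 22412 tested genes. The MYLIP row is shared with a microRNA gene, MIR4639, and no named row was found for FDFT1 or NR1H2. Lipoprotein receptor genes were not analysed here.

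All cells were transfected for 48 h with 30 pmol of siRNA and 2 µl of a lipid reagent. The siRNA targeted KHSRP in 3 arrays and was a non-targeting scramble siRNA in the other 3, and the labels call the arrays of each group biological replicates without saying whether cultures were started separately. KHSRP encodes a KH-domain protein that binds AU-rich elements and speeds the decay of the RNAs that carry them. Its own row, which also carries the annotation of a microRNA gene, averaged 5.59 ± 0.03 in the KHSRP siRNA arrays and 5.66 ± 0.08 in the scramble arrays (log2 intensity, SD, n = 3). It differed by -0.070 (log2 fold change, SE 0.08, adjusted p = 0.804 by limma), which leaves the siRNA labels unchecked by the target, and group names below are those of the labels. Of the 9 epithelial markers, 7 lay above the median level of all genes, with EPCAM at 12.19 and 12.11 in the KHSRP siRNA and scramble arrays. ELF3 and VIL1 lay under it, at mean levels of 4.54 and 4.74. Of the 9 measured leukocyte, stromal and endothelial markers, 8 lay under the median level. CD68, the other 1, averaged 5.73 and 5.75.

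Cholesterol is built in the endoplasmic reticulum from acetyl-CoA by way of mevalonate, farnesyl diphosphate, squalene and lanosterol. When sterols are scarce, the escort protein SCAP carries the SREBP transcription factors to the Golgi, where they are cleaved, and the released fragment enters the nucleus and switches on genes of synthesis and uptake. When sterols are plentiful, INSIG proteins hold SCAP back, and oxysterols activate the LXR nuclear receptors, which switch on efflux genes. Colonic epithelial cells both make cholesterol and take it up.

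Values below are the deposited log2 intensities, and differences are log2 fold changes, KHSRP siRNA minus scramble siRNA, with limma's standard error (SE). A gene was called at a Benjamini-Hochberg adjusted p under 0.05 over all tested genes. Of the 28 measured genes, 1 was called, MSMO1, which was higher. Over all tested genes, 0.759% were called, 0.509% as higher and 0.25% as lower. An unadjusted p under 0.05 was reached by 11 of the 28, by 14.4% of all tested genes and by 24.0% of those above the median level of all genes, where 25 of the 28 lie. In 13 of the 28 the groups of arrays did not overlap, 11 with the KHSRP siRNA arrays above and 2 with them below. Over all tested genes the groups did not overlap in 19.4%, with 11.6% higher and 7.82% lower. Among genes above the median level the share was 28%. In 8 of the 28 the groups did not overlap and the log2 fold change was at least 0.4, as in 3.76% of all tested genes. That share is not given for genes above the median level, where all 8 lie. There, 1819 of 11206 genes were separated upward by any amount. The median log2 fold change of the 28 was 0.13, against 0.017 over all tested genes, and 23 of the 28 were fitted above 0, as were 12316 of the 22412 tested. The 23 became 17 after a second quantile normalization and 19 after median centring or with a covariate for array medians. Array by array, the median deviation of the 28 from their scramble means was 0.17, 0.080 and 0.16 in KHSRP siRNA replicates 1 to 3, beside 0.037, -0.018 and 0.027 over all tested genes. The count of called genes depended on the fit. Restricting the test to genes above the median level, or weighting the arrays, called 5 of the genes by limma (MSMO1, NSDHL, EBP, SC5D and STARD4), all of them higher. Of all genes tested, 2.41% and 1.79% were called as higher in these fits.

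**Figure D1:**
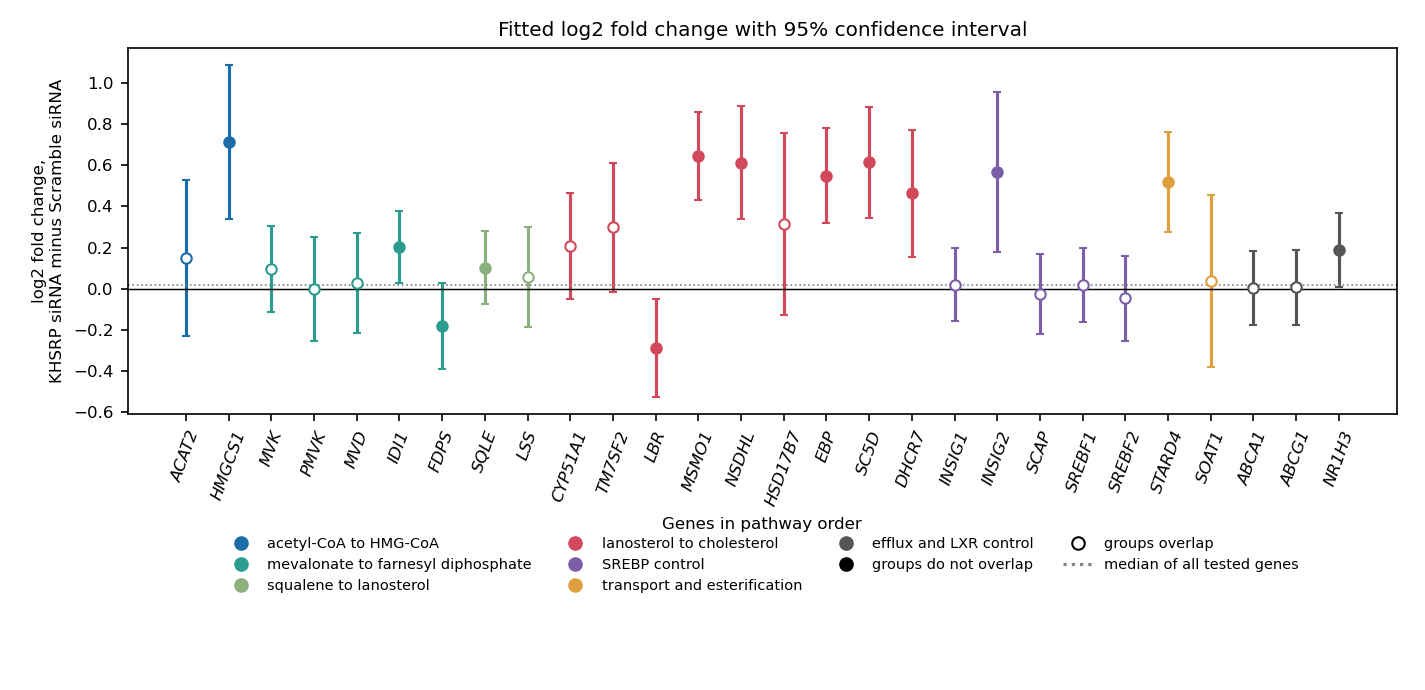
Fitted log2 fold change (KHSRP siRNA minus scramble siRNA, y axis) of the 28 measured genes in pathway order (x axis), with 95% confidence intervals from limma. Colours mark the steps, filled points are genes whose groups of 3 arrays do not overlap, and the dotted line is the median of all tested genes. The genes between lanosterol and cholesterol hold 5 of the 11 filled points above 0, with LBR below 0 at -0.29.

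The pathway opens with ACAT2, which joins acetyl-CoA units, and HMGCS1, which adds another to give HMG-CoA. HMGCS1 read 9.62, 10.02 and 9.77 in scramble replicates 1 to 3 and 10.29, 10.45 and 10.80 in KHSRP siRNA replicates 1 to 3. Every KHSRP siRNA array lay above every scramble array. The log2 fold change was 0.71 (SE 0.16, 95% confidence interval 0.34 to 1.09), the largest fitted value among the 28, and it did not pass limma's threshold (adjusted p = 0.0960). ACAT2 was brighter, at 12.65 ± 0.32 and 12.51 ± 0.10 in the KHSRP siRNA and scramble arrays, and its groups overlapped. Its log2 fold change of 0.15 (interval -0.23 to 0.53) became -0.0026 without KHSRP siRNA replicate 1, the array with its highest reading (12.96).

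Mevalonate is phosphorylated by MVK and PMVK, decarboxylated by MVD, isomerised by IDI1 and condensed to farnesyl diphosphate by FDPS. None of these 5 genes was called by limma, and 1 of them, IDI1, had an unadjusted p under 0.05 (0.0285). IDI1 read 6.28, 6.24 and 6.19 in the scramble arrays and 6.48, 6.44 and 6.40 in the KHSRP siRNA arrays. The readings within each group were close together and the groups did not overlap, with a log2 fold change of 0.20 (SE 0.07, adjusted p = 0.270). FDPS ran the other way, at 12.41, 12.56 and 12.64 in the scramble arrays and 12.41, 12.34 and 12.32 in the KHSRP siRNA arrays. Its replicates 1 were nearly level between the groups, and they overlapped once arrays were centred on their medians. The log2 fold change of FDPS was -0.18 (interval -0.39 to 0.028, adjusted p = 0.427). MVK, PMVK and MVD gave 0.095, -0.00061 and 0.028, and all 3 intervals lay between -0.25 and 0.31. MVK, at a mean level of 4.70, was under 4.78, the level that 95% of 393 olfactory receptor genes do not exceed. That level was taken as a guide to background, so a difference in MVK may be understated on this scale. MVD lay close to the guide, at a mean level of 4.90.

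Squalene is oxidised by SQLE, which uses molecular oxygen, and closed to the first sterol, lanosterol, by LSS. SQLE read 12.63, 12.61 and 12.62 in the scramble arrays and 12.66, 12.73 and 12.78 in the KHSRP siRNA arrays. The scramble readings were tightly grouped (SD 0.0064) and all lay below the KHSRP siRNA readings, but the log2 fold change was 0.10 (SE 0.08, interval -0.074 to 0.28, adjusted p = 0.636). The SQLE groups overlapped once arrays were quantile-normalized again or centred on their medians. LSS overlapped in the deposited values as well, at 0.059 (interval -0.18 to 0.30).

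The steps from lanosterol to cholesterol held 9 measured genes. Of these, 8 were fitted above 0, 5 had KHSRP siRNA arrays all above the scramble arrays, 1 had them all below, and the median log2 fold change was 0.46. Over all tested genes 11.6% were separated upward and 7.82% downward, and 28% in either direction among genes above the median level, where all 9 lie. The median deviation of the 9 from their scramble means was 0.40, 0.37 and 0.62 in KHSRP siRNA replicates 1 to 3.

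MSMO1 encodes the oxidase that starts removal of methyl groups from the sterol nucleus. It read 9.76, 9.84 and 9.77 in the scramble arrays and 10.29, 10.49 and 10.52 in the KHSRP siRNA arrays. It rose 1.56-fold, by a log2 fold change of 0.65 (SE 0.09, interval 0.43 to 0.86, limma adjusted p = 0.0473). The rise lay at the 98.2th percentile of all tested genes. The call was lost when KHSRP siRNA replicate 2 (adjusted p = 0.115) or replicate 3 (0.169) was left out, or scramble replicate 1 (0.0747), replicate 2 (0.148) or replicate 3 (0.166). Without KHSRP siRNA replicate 1 it was kept (0.0327), and the log2 fold change ran from 0.60 to 0.72 over these fits. On all 6 arrays the call was also lost after scaling by a second quantile normalization (0.0513) or by median centring (0.0636), with an intensity trend and robust prior (0.0659) and with a covariate for array medians (0.0789), at log2 fold changes from 0.60 to 0.67.

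NSDHL and HSD17B7 encode the dehydrogenase and the reductase that act after MSMO1 in the same demethylation. NSDHL read 9.53, 9.53 and 9.47 in the scramble arrays and 10.19, 9.88 and 10.29 in the KHSRP siRNA arrays. KHSRP siRNA replicate 2 was the lowest of its group and still above every scramble array. The log2 fold change was 0.61 (SE 0.12, adjusted p = 0.0679). HSD17B7 averaged 8.01 ± 0.33 and 7.69 ± 0.24 in the KHSRP siRNA and scramble arrays, with overlap (0.32, interval -0.13 to 0.76).

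EBP, SC5D and DHCR7 encode the isomerase, the desaturase and the reductase that move and remove double bonds late in the pathway. EBP read 12.49, 12.26 and 12.39 in the scramble arrays and 12.92, 12.83 and 13.04 in the KHSRP siRNA arrays. Its log2 fold change was 0.55 (SE 0.10, adjusted p = 0.0597), although it was among the brightest of the 28. SC5D read 7.15, 7.01 and 7.04 in the scramble arrays and 7.59, 7.54 and 7.91 in the KHSRP siRNA arrays. Its groups were separated by more than the spread within either, with a log2 fold change of 0.62 (SE 0.11, adjusted p = 0.0659). DHCR7, the enzyme of the last reduction to cholesterol, read 8.12, 8.33 and 8.36 in the scramble arrays and 8.48, 8.88 and 8.84 in the KHSRP siRNA arrays. Replicate 1 was the lowest reading of DHCR7 in each group, and the log2 fold change was 0.46 (SE 0.13, adjusted p = 0.168).

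CYP51A1, TM7SF2 and LBR act first on lanosterol: CYP51A1 removes a methyl group, and TM7SF2 and LBR each encode a reductase for the double bond left behind. CYP51A1 was the brightest of the 28, at 14.06 ± 0.18 and 13.85 ± 0.08 in the KHSRP siRNA and scramble arrays, and its groups overlapped (0.21, interval -0.048 to 0.47). TM7SF2 read 6.06, 6.30 and 6.10 in the scramble arrays and 6.55, 6.18 and 6.61 in the KHSRP siRNA arrays. Replicate 2 of the KHSRP siRNA arrays fell inside the scramble range, and the log2 fold change was 0.30 (interval -0.016 to 0.61, adjusted p = 0.377). LBR, which is also a lamin-binding protein of the inner nuclear membrane, read 9.32, 9.48 and 9.62 in the scramble arrays and 9.09, 9.22 and 9.25 in the KHSRP siRNA arrays. All KHSRP siRNA arrays lay below all scramble arrays for LBR (log2 fold change -0.29, SE 0.10, interval -0.53 to -0.050, adjusted p = 0.253). The fitted values of these reductase genes had opposite signs, and the difference between them was not tested.

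**Figure D2:**
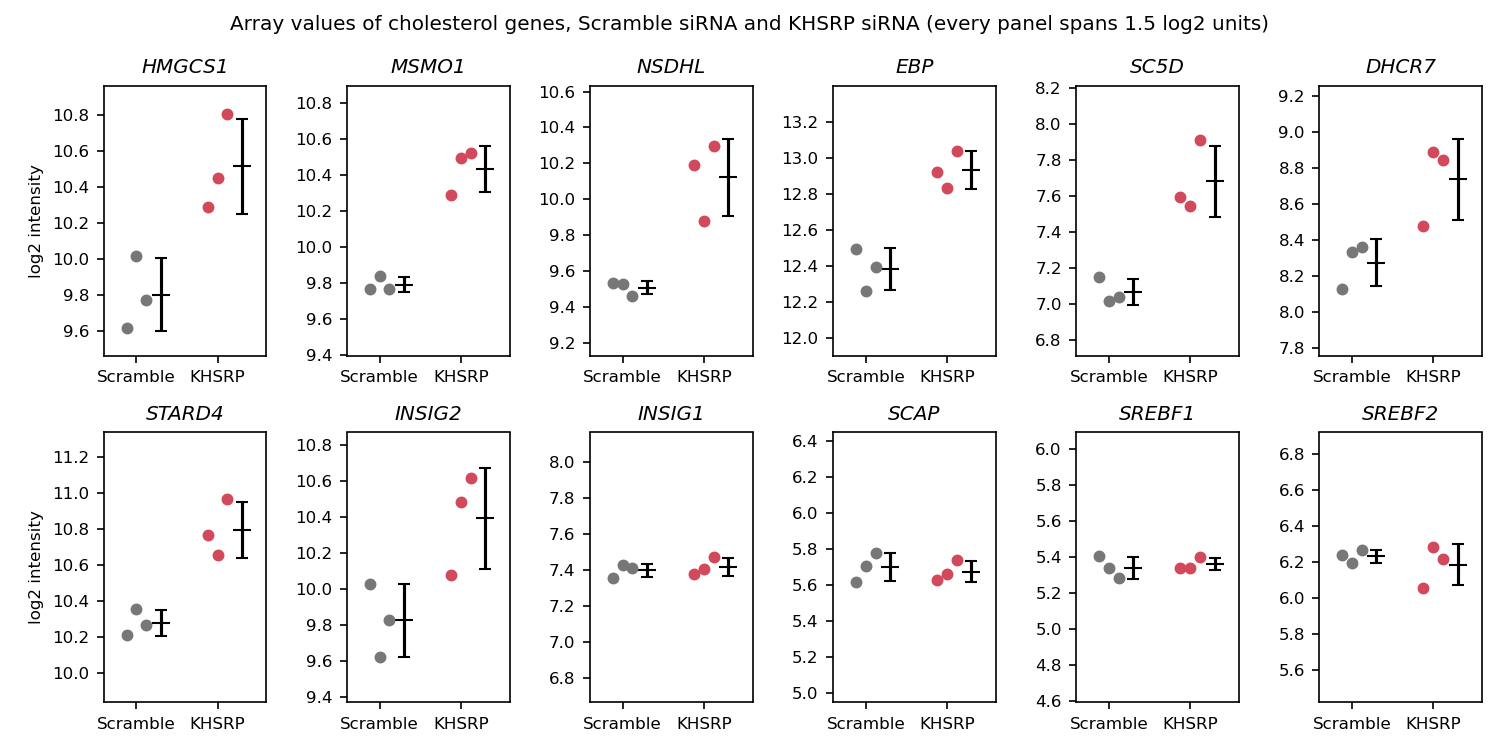
Log2 intensity (y axis) of 12 genes on each array, with scramble siRNA in grey and KHSRP siRNA in red, replicates 1 to 3 from left to right. The black marks are the mean ± SD of 3 arrays, and every panel spans the same range of log2 units. The 8 genes from HMGCS1 to INSIG2 show groups that do not overlap, and INSIG1, SCAP, SREBF1 and SREBF2 show groups that do.

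Of the genes of the SREBP switch, SREBF2, SREBF1 and SCAP were nearly level. SREBF2, whose product drives the cholesterol genes, read 6.24, 6.19 and 6.27 in the scramble arrays and 6.06, 6.28 and 6.22 in the KHSRP siRNA arrays. SREBF1, whose product favours fatty acid genes, read 5.40, 5.34 and 5.28 in the scramble arrays and 5.34, 5.34 and 5.40 in the KHSRP siRNA arrays. The groups overlapped for both genes, with log2 fold changes of -0.046 (interval -0.25 to 0.16) for SREBF2 and 0.020 (interval -0.16 to 0.20) for SREBF1. SCAP, the escort, read 5.62, 5.71 and 5.78 in the scramble arrays and 5.63, 5.66 and 5.74 in the KHSRP siRNA arrays, again with overlap (-0.026, interval -0.22 to 0.17). The signs of these 3 small values were not settled, since each turned in at least 1 alternative fit (SREBF2 was at 0.019 without KHSRP siRNA replicate 1). These rows measure transcript level only, and the cleavage that activates SREBP proteins was not measured.

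The INSIG genes, which encode the anchors that retain SCAP, gave unlike values. INSIG1 read 7.35, 7.42 and 7.41 in the scramble arrays and 7.38, 7.40 and 7.47 in the KHSRP siRNA arrays. Its readings interleaved, and the log2 fold change was 0.020 (SE 0.08, interval -0.16 to 0.20, adjusted p = 0.956). INSIG2 read 10.02, 9.62 and 9.83 in the scramble arrays and 10.07, 10.48 and 10.62 in the KHSRP siRNA arrays. The groups were separated by a small gap between KHSRP siRNA replicate 1 and scramble replicate 1, which closed after quantile normalization again. The log2 fold change of INSIG2 was 0.57 (SE 0.17, interval 0.18 to 0.95), and it was not called (adjusted p = 0.175). INSIG1 is known as a strong SREBP target and INSIG2 as a gene that largely escapes that control. The difference between the genes was not tested.

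STARD4 encodes a soluble carrier that moves cholesterol between membranes, and SOAT1 the enzyme that esterifies it for storage. STARD4 read 10.21, 10.35 and 10.27 in the scramble arrays and 10.77, 10.65 and 10.96 in the KHSRP siRNA arrays. All KHSRP siRNA readings lay above all scramble readings, with a log2 fold change of 0.52 (SE 0.10, interval 0.28 to 0.76, adjusted p = 0.0723). SOAT1 varied within each group, from 6.95 to 7.45 in the scramble arrays and from 7.10 to 7.60 in the KHSRP siRNA arrays (0.038, interval -0.38 to 0.46), and its sign turned without KHSRP siRNA replicate 2 (-0.12) or scramble replicate 3 (-0.11).

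On the efflux side, ABCA1 and ABCG1, pumps that hand cholesterol to lipoproteins, were the dimmest of the 28. Their mean levels, 3.84 and 4.003, lay under the background guide of 4.78, so no change could be measured there with confidence (0.0055 and 0.0087, each with SE 0.08). NR1H3, which encodes an LXR receptor, read 4.94, 5.04 and 5.05 in the scramble arrays and 5.22, 5.21 and 5.17 in the KHSRP siRNA arrays. The groups did not overlap, at a level close to the background guide (log2 fold change 0.19, SE 0.08, adjusted p = 0.320). The row shared by MYLIP, a ubiquitin ligase that sends lipoprotein receptors to degradation, and MIR4639 read 6.70, 7.18 and 7.10 in the scramble arrays and 6.77, 5.91 and 6.55 in the KHSRP siRNA arrays. Scramble replicate 1 lay among the KHSRP siRNA readings, the fitted value was -0.59 (SE 0.23, adjusted p = 0.298 when rows with several symbols are tested), and it cannot be assigned to either gene.

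**Figure D3:**
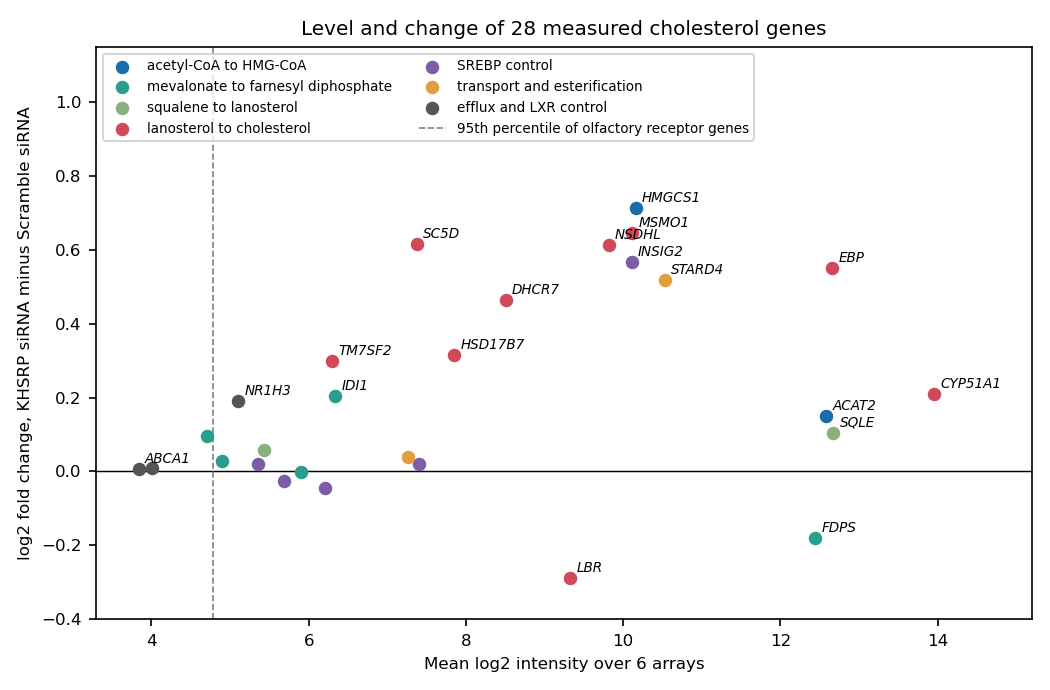
Mean log2 intensity over 6 arrays (x axis) against log2 fold change, KHSRP siRNA minus scramble siRNA (y axis), for the 28 measured genes, coloured by step. The dashed line at 4.78 marks the 95th percentile over olfactory receptor genes. The 8 genes above 0.4 lie at levels from 7.37 (SC5D) to 12.66 (EBP), and CYP51A1 and SQLE are brighter than EBP with smaller values.

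Of the 31 genes, 27 had at least 1 promoter sequence in RefSeq (assembly GRCh38.p14), with 36 promoters in all, some of them overlapping starts of 1 gene. Each covers 250 bases before to 50 after the start. Both strands were searched for motifs. CCAAT, the core of the NF-Y site that often accompanies SREBP sites, stood in 58.3% of the 36 promoters and in 34.6% of all 35116 promoters in the table. GGGCGG, the core of the Sp1 site, stood in 86.1% and in 45% of all. CACGTG, the E-box, stood in 16.7% and in 7.26% of all. TCACNCCAC, a form of the sterol regulatory element, was matched in 1 promoter of the set, that of SREBF2, and in 1.13% of all. A direct repeat of AGGTCA spaced by 4 bases, a form of the LXR element, was matched in none of the 36 and in 0.0199% of all. These are matches of letters, not measured sites, and sterol elements that differ from the searched form are not counted.

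CCAAT was matched in 7 of the 8 genes with no overlap and a log2 fold change of at least 0.4, all but INSIG2. It was matched in 11 of the 17 other measured genes with a promoter. GGGCGG was matched in 7 of the 8 and 16 of the 17. CACGTG was matched in 1 of the 8 and 4 of the 17, and the sterol element in 0 of the 8 and 1 of the 17. Genes with more than 1 promoter, such as HMGCS1, SC5D, DHCR7, INSIG2, IDI1 and NR1H3, have more chances to match. The share over all genes, counted by gene, is not given, and the difference was not tested. The upstream 250 bases of 5 genes show how the matches fall in MSMO1, in NSDHL and EBP, whose groups did not overlap, and in MVK and SREBF2, whose groups did. They are printed 5′ to 3′ on the gene's strand, with CCAAT, its reverse complement ATTGG and the sterol element in capitals.
MSMO1 (chr4:165327419-165327668, plus strand): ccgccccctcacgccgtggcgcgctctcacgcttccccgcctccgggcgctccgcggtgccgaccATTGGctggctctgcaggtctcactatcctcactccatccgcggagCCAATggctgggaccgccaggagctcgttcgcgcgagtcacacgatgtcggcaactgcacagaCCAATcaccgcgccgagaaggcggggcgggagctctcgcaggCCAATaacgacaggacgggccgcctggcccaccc
NSDHL (chrX:152830813-152831062, plus strand): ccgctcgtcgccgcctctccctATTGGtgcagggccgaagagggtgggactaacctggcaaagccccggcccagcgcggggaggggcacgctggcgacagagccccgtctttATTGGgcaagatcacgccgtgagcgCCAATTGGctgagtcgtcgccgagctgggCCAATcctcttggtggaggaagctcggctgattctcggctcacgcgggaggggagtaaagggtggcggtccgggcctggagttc
EBP (chrX:48521558-48521807, plus strand): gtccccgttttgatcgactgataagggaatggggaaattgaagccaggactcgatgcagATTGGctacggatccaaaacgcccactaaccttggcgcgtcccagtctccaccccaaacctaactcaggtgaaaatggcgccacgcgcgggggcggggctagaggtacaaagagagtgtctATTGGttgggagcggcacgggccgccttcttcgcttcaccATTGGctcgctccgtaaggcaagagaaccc
MVK (chr12:109573544-109573793, plus strand): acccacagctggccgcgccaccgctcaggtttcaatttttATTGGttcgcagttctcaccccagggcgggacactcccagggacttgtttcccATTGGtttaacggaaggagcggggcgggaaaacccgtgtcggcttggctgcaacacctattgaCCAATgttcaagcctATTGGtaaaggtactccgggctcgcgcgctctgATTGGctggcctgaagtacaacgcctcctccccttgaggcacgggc
SREBF2 (chr22:41832855-41833104, plus strand): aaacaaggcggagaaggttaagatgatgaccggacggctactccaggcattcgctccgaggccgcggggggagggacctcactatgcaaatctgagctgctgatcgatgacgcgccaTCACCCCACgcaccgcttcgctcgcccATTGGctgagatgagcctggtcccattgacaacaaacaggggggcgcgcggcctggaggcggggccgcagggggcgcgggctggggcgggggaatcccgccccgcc
MSMO1 holds 4 matches of CCAAT, NSDHL 5 and EBP 3, beside log2 fold changes of 0.65, 0.61 and 0.55. MVK also holds 5, beside 0.095, but its mean level of 4.70 lay under the background guide, so its difference may be understated. SREBF2 holds 1 CCAAT and the sterol element, beside -0.046. In NSDHL, 2 of the matches overlap on opposite strands. Among the 8 genes above 0.4, MSMO1, NSDHL and EBP hold the most matches in these bases. HMGCS1, at 0.71, and DHCR7, at 0.46, each hold 2 in 1 promoter and 0 in another. STARD4 holds 2, SC5D 1 in each promoter and INSIG2 0.

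Related genes were described from 5 further lists. By limma, 0 of their 56 measured genes were called, and 10 had an unadjusted p under 0.05 (17.9%, against 14.4% of all tested genes and 24.0% of those above the median level, where 47 of the 56 lie). Fatty acid synthesis and desaturation genes, another SREBP-driven programme, had a median of -0.026 over 12 measured genes. In 2 of the 12 the KHSRP siRNA arrays all lay above the scramble arrays and in 2 all below. Over all tested genes 11.6% were separated upward and 7.82% downward. The share was 28% in either direction among genes above the median level, where all 12 lie. ACACA, the carboxylase that commits acetyl-CoA to fatty acids, read 10.49, 11.08 and 10.90 in the scramble arrays and 10.00, 10.01 and 10.15 in the KHSRP siRNA arrays (-0.77, SE 0.15, adjusted p = 0.0716). It was called as lower with array weights or among genes above the median level. GPAM, which starts glycerolipid synthesis, was at -0.38 (SE 0.09, adjusted p = 0.107, called as lower with array weights), and the elongase gene ELOVL6 was at 0.38 (SE 0.12, adjusted p = 0.207). The lipogenic genes thus had values on both sides of 0, with FASN at 0.074 (SE 0.10) and SCD at -0.0027 (SE 0.11).

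Genes of SREBP cleavage, export and degradation had a median of 0.015 over 11 measured genes, with 1 separated above and 1 below. That is 18.2%, against 28% in either direction among genes above the median level, where all 11 lie. MBTPS1, the protease of the first SREBP cleavage, was at -0.32 (SE 0.11, adjusted p = 0.228), and PAQR3, a Golgi anchor of SCAP, at 0.10 (SE 0.08). SYVN1, a ubiquitin ligase of the endoplasmic reticulum, was at 0.48 (SE 0.20) with overlapping groups. Genes of the isoprenoid branches had a median of 0.073 over 9, with the farnesyltransferase subunit gene FNTA at -0.21 (SE 0.08). The prenyl diphosphate synthase subunit gene PDSS2 was at 0.19 (SE 0.10), at a mean level of 4.80, close to the background guide of 4.78. The prenyltransferase subunit gene PGGT1B was at 0.47 (SE 0.19), with overlap. Sterol transport and lysosomal hydrolysis genes had a median of -0.011 over 14. Among them LIPA, the lysosomal lipase that frees cholesterol from lipoproteins, was at -0.33 (SE 0.08, adjusted p = 0.120), with all KHSRP siRNA arrays below the scramble arrays. NCEH1, a cholesteryl ester hydrolase, was larger and of the other sign, at 0.69 (SE 0.25, adjusted p = 0.270), with overlap. LXR partners, targets and oxysterol enzymes had a median of 0.013 over 10, with the LXR partner RXRA at 0.16 (SE 0.08). RXRA lay close to the background guide of 4.78, at a mean level of 4.95. Of these 10 genes, 4 lay above the median level of all genes, where their median was 0.092. A difference in the dimmer genes may be understated on this scale. With 1 array left out, the medians ran from -0.068 to 0.033 for fatty acid genes, -0.034 to 0.033 for cleavage genes, 0.031 to 0.14 for isoprenoid genes, -0.057 to 0.014 for sterol transport genes and -0.035 to 0.034 for LXR genes, so 4 of the 5 had no settled sign.

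**Figure D4:**
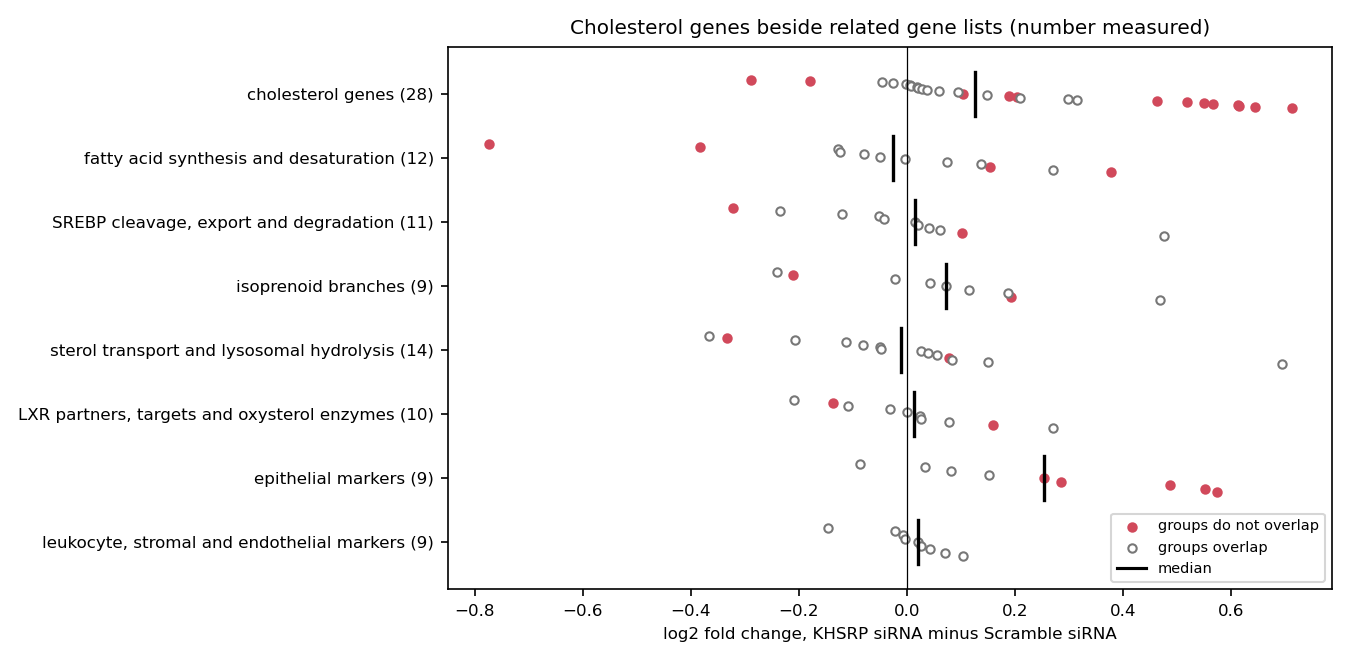
Log2 fold change, KHSRP siRNA minus scramble siRNA (x axis), of each measured gene in the cholesterol set and in related and marker lists (y axis, number measured in brackets). Red points are genes whose groups of arrays do not overlap, open points overlap, and black bars are medians, which run from -0.026 for fatty acid genes to 0.13 for cholesterol genes and 0.25 for epithelial markers.

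Marker genes of other kinds were set beside these values. Of 9 epithelial markers, 5 had KHSRP siRNA arrays all above the scramble arrays and the median was 0.25, with KRT8 at 0.58 (SE 0.11), KRT18 at 0.49 (SE 0.09) and EPCAM at 0.081 (SE 0.09), and none was called by limma (5 with an unadjusted p under 0.05). Of these markers 8 were fitted above 0 and 1 below. The shares over all tested genes are 11.6% for separation upward and 14.4% for that p. Above the median level, where 7 of the 9 lie, 1819 of 11206 genes were separated upward and 24.0% reached that p. The 9 measured leukocyte, stromal and endothelial markers had a median of 0.020 and none was separated between the groups. The part of the epithelial markers in the cholesterol values was not tested. In cells sampled in bulk, more transcript per cell and more cells with the transcript cannot be told apart.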

How the data were processed

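RNA from 6 SW480 samples was amplified, biotin-labelled and measured on Affymetrix arrays, per the labels' protocols. The authors deposited log2 intensities in 70523 rows. The tools were Affymetrix Expression Console, RMA and Transcriptome Analysis Console with build hg19, per the submitters' processing notes. Tool versions were not given in the sources used here. Array maxima ran from 19.72 to 19.93, above what RMA alone is thought to give, so a further transform is possible and folds depend on the scale. Array medians ran from 4.30 to 4.38, and Pearson correlations over all rows from 0.984 to 0.991.

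Rows were named through the platform annotation, with symbols updated through RefSeq. The row with 1 symbol and the highest mean was used per gene, with KHSRP as the only shared row. That gave 22412 genes, fitted with limma 3.58.1 in R 4.3.3 (lmFit, eBayes, two-sided, Benjamini-Hochberg over all genes). The fit was tested on simulated data. Arrays carry no depth, and their number limits the precision.

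The 31 genes, the lists and the motifs were chosen with earlier results of these data known, so no list was tested as a set. Array values were given by rule for called genes, for genes with no overlap between groups and a log2 fold change of 0.4 or more in size, and for the 5 SREBP regulators. Those of FDPS, IDI1, SQLE, TM7SF2, LBR, NR1H3 and ACACA were added after their values were seen. So were FASN, SCD, SYVN1, PGGT1B, NCEH1, KRT8, KRT18, ELF3 and VIL1 among the named genes. Array values of the row shared by MYLIP and MIR4639 were also given, outside the rule. From each further list, up to 3 genes with the largest separated difference above the median level were named. The 15 alternatives covered the replicate block, scaling, filter, variance model, array weights, choice of rows, array medians and each array left out.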

Additional observations from a re-analysis of the deposited data

How the results depend on the processing

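Limits. The 170 calls over all genes hang on the threshold. By limma there was 1 with the replicate block, 704 with array weights, 433 when dimmer genes were dropped and 32 after a second quantile normalization. There were 0 after median centring (3111 genes at an unadjusted p under 0.05), 0 with an intensity trend and robust prior (3097) and 0 with a covariate for array medians (3535). Leaving out 1 array gave 0 to 329. The count of called cholesterol genes was 0 with the replicate block, a second quantile normalization, median centring, the trend and robust prior or the covariate, with 9 to 11 at an unadjusted p under 0.05. MSMO1 had an adjusted p of 0.0900 with the replicate block. The count was 5 with array weights or among genes above the median level, and 0 to 1 with 1 array left out. Some of these fits used fewer genes or arrays, and the cause of the differences in count was not tested. Same-numbered arrays did not deviate together (correlations 0.16, 0.06 and -0.08), so the numbers were not taken as pairs.

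The median of the cholesterol genes stayed above 0 throughout, from 0.10 to 0.19, the latter among genes above the median level. The number without overlap ran from 11 to 13 in the alternatives that kept every array. Among these, only a second quantile normalization and median centring changed the array values of these genes, and each gave 11. With an array left out the number ran from 13 to 17, and separated groups cannot come to overlap when an array is dropped. Groups with fewer arrays separate more easily, and the share over all tested genes is not given for those fits. The higher counts there therefore cannot be read as stronger separation. The 8 genes above 0.4 were fitted above 0 in all alternatives. Since their groups do not overlap, leaving out an array or weighting the arrays could not turn the sign. The replicate block, the filter, the variance model and the choice of rows left their values unchanged. Only the scaling fits and the covariate for array medians could have turned it. There the values ran from 0.42 (DHCR7, second quantile normalization) to 0.74 (HMGCS1, covariate).

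Values near 0 turned sign. After a second quantile normalization MVD was at -0.0033, INSIG1 at -0.028, SREBF1 at -0.030, SOAT1 at -0.018, ABCA1 at -0.0011 and ABCG1 at -0.0045. After median centring INSIG1 was at -0.0035, SREBF1 at -0.0041, ABCA1 at -0.018 and ABCG1 at -0.015. With the covariate for array medians MVD was at -0.035, SREBF1 at -0.00098, ABCA1 at -0.014 and ABCG1 at -0.020. With 1 array left out, the log2 fold change of ACAT2 ran from -0.0026 to 0.32, PMVK from -0.055 to 0.079, MVD from -0.029 to 0.11, LSS from -0.015 to 0.13, INSIG1 from -0.0076 to 0.041, SCAP from -0.066 to 0.012, SREBF1 from -0.011 to 0.051, SREBF2 from -0.094 to 0.019, SOAT1 from -0.12 to 0.14, ABCA1 from -0.019 to 0.037 and ABCG1 from -0.014 to 0.043.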
